A study of Sus scrofa with 23 samples.

Results

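The genes described here are the Wnt ligands, receptors, inhibitors and R-spondins of pig coronary arteries with a pair of their targets. The members were every row of the deposited tables whose name starts with WNT, FZD or DKK and a digit, or with SFRP2 to SFRP5, and 8 further genes named in the rule that have a row (AXIN2, LEF1, LRP5, LRP6, RSPO1, RSPO2, RSPO3 and WIF1). This gave 36 of 35228 gene names: 15 ligands, 9 receptors, 7 secreted inhibitors, 3 R-spondins, and AXIN2 and LEF1. The choice used names and no measured values, although it was made with earlier results of these data known.

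Wnt ligands are secreted lipid-modified glycoproteins that bind Frizzled receptors, alone or together with the co-receptors LRP5 and LRP6. In the canonical branch of the pathway this stabilises beta-catenin, which enters the nucleus and switches on target genes together with the TCF and LEF factors. Other branches act through Frizzled and ROR or RYK receptors on cell polarity, calcium and movement. Most Dickkopf (DKK) proteins act on LRP5 and LRP6, secreted Frizzled-related proteins (SFRP) and WIF1 bind the ligands themselves, and R-spondins strengthen the signal by keeping Frizzled receptors on the cell surface. In arteries the pathway is studied for smooth muscle growth, endothelial stability and calcification of the wall.

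Coronary arteries of Yorkshire pigs, a farm breed, had been cut into serial 3-mm segments, graded under the microscope for atherosclerosis and sequenced as RNA. All animals were hypercholesterolemic. Diabetic animals gave 6 moderate and 4 severe segments, and non-diabetic animals gave 4 mild, 4 moderate and 5 severe ones, 23 libraries in all. The labels give no age, no way in which diabetes or the raised cholesterol was produced, and no animal for any segment, and diabetes was not combined with mild disease in the samples used here. The title of severe non-diabetic replicate 5 places it in that group whereas its disease fields read moderate with diabetes. It was counted by its title, and values without it cannot be given because the deposited tables hold group means only. Low means left by a single read in a single library took 5 levels in severe non-diabetic and 6 in moderate diabetic segments. These are the numbers of libraries that the titles give, so the authors' group means have the group sizes of the titles.

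Every mean below is the authors' mean normalized count of a group, that is, read counts divided by a size factor of each library and averaged. Fold changes and their standard errors (after ±) are on the log2 scale and come from DESeq2 as the authors ran it, unless a value is said to be computed here. Calls use a threshold of 0.05 on the adjusted p. An interval given after a group mean is a 95% interval worked out here from the deposited standard errors. P-values measure the spread between segments and are too small where 1 animal gave several segments to a group. The 95% intervals rest on the same standard errors and are too narrow in that case. Intervals that do not overlap are therefore no evidence separate from the tests. The low means place the library totals at about 6.72 to 15.0 M reads. Of the 36 members, 25 reached a mean of 10 over the 5 groups and 11 lay under it. Gene length was not used, so the means of different genes do not rank their transcript levels.

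The artery markers fitted the label: the 7 contractile smooth muscle markers with a row summed to 85226 and 89329 normalized counts in moderate and severe diabetic segments, and to 120749, 100607 and 85688 in mild, moderate and severe segments without diabetes. ACTA2 and TAGLN had the highest means of the 7. MYH11, DES, CNN1 and SMTN were lowest in the diabetic groups, MYH11 at 7067 and 5203 in moderate and severe diabetic segments. Without diabetes MYH11 averaged 12201, 11668 and 9106 in mild, moderate and severe segments. ACTA2, TAGLN and MYOCD were not lowest in both diabetic groups, and ACTA2 was highest in severe diabetic segments at 42032. Heart muscle was also present and unequal. Its 8 markers with a row summed to 2462 and 3649 in moderate and severe diabetic segments, against 110791, 32653 and 27797 in mild, moderate and severe segments without diabetes, and 1 of them, NPPA, was at 0 in moderate diabetic segments. The 8 adventitial fibroblast markers summed to 19117 and 27237 in moderate and severe diabetic segments, against 49074, 25878 and 22474 in mild, moderate and severe segments without diabetes. The 5 adipocyte markers summed to 1813 and 2432 in moderate and severe diabetic segments, against 7573, 4115 and 4090 in mild, moderate and severe segments without diabetes. None of the heart muscle or adipocyte markers was called in either comparison with mild segments, and MYH7 alone held 70686 of the mild heart muscle sum. Macrophage markers, 7 with a row, summed to 16615 and 17583 in moderate and severe diabetic segments, against 9249, 12677 and 17702 in mild, moderate and severe segments without diabetes. The 6 T cell markers summed to 206 and 220 in moderate and severe diabetic segments, against 77.3, 89.0 and 85.2 in mild, moderate and severe segments without diabetes. The part of these shifts in the Wnt results below was not tested, and in bulk tissue fewer cells of a type and less RNA per cell cannot be told apart.

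**Figure D1:**
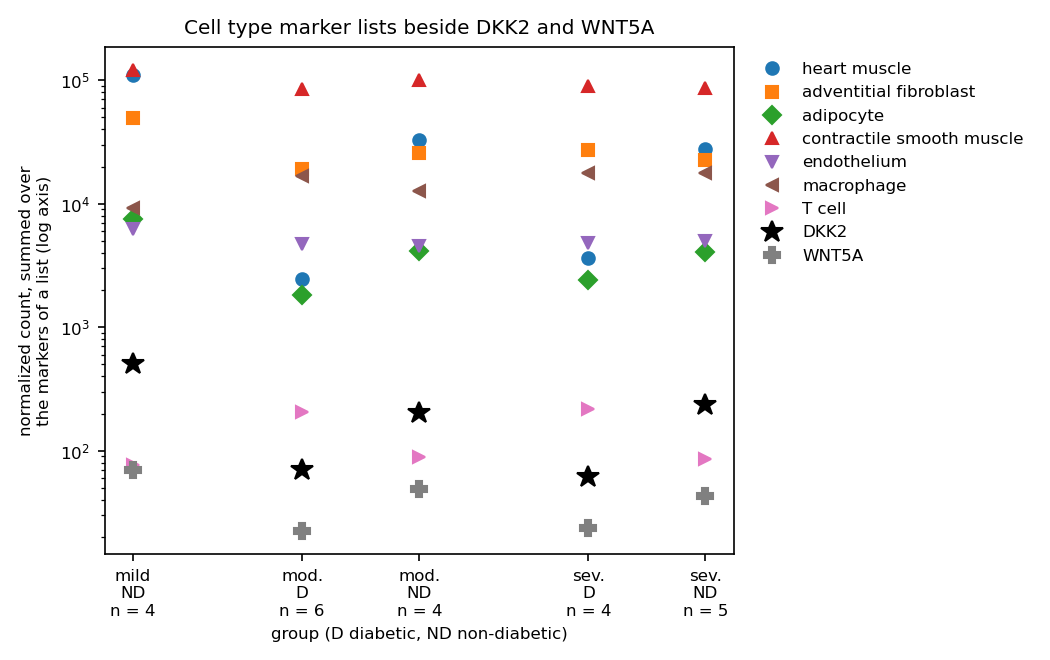
Normalized count on a log axis, summed over the markers of each cell type list, in the 5 groups (D diabetic, ND non-diabetic; n gives the libraries of a group), with the group means of DKK2 and WNT5A. Heart muscle markers sum to 2462 and 3649 in the diabetic groups, against 27797 to 110791 in the other groups, and DKK2 and WNT5A are also lowest in the diabetic groups.

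The first question was how Wnt transcripts differ with the grade of the lesion in animals without diabetes. The inhibitor DKK2 was lower in moderate than in mild segments, and DKK2, the ligands WNT2 and WNT16, the receptor FZD2 and the feedback gene AXIN2 were lower in severe than in mild segments. No member was higher. In moderate against mild segments 1 of the 27 members with an adjusted p was lower (3.7%), where 4.63% of all 18561 genes tested were called, 1.08% lower and 3.56% higher. In severe against mild segments 5 of 29 members were lower (17.2%), where 12.0% of all 20294 genes tested were called, 4.8% lower and 7.19% higher. Among the 25 members with a mean of at least 10, 20 had a fold change below 0 in severe against mild segments (80.0%, median log2 -0.20), against 53.1% of 17509 genes with such a mean (median -0.03). In moderate against mild segments 17 of the 25 lay below 0 (68.0%, median -0.15), against 49.4% of all such genes (median 0.00). Both comparisons use the same mild libraries.

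Moderate and severe segments were hardly separable. Severe against moderate segments gave 0 calls among 36 members with diabetes and 0 among 27 without in the authors' DESeq2 results. At an unadjusted p under 0.05 there was 1 member with diabetes (FZD9) and there were 3 without (FZD2, RSPO3 and DKK1). Over all genes the shares called were 0.00332% with diabetes (0.00332% higher, 0.0% lower) and 0.0203% without (0.00507% higher, 0.0152% lower).

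The second question was how diabetes relates to the same transcripts at a given grade. DKK2 and WNT5A were lower in diabetic than in non-diabetic segments at both grades, WIF1, WNT2B and DKK1 were lower in moderate segments, FZD9 was lower in severe segments, and RSPO3 was higher in moderate segments. In moderate segments 5 of 31 members with an adjusted p were lower (16.1%) and 1 was higher (3.23%), where 16.7% of all 22025 genes tested were called, 8.46% lower and 8.2% higher. In severe segments 3 of 29 members were lower (10.3%) and 0 higher, where 10.7% of all 20869 genes tested were called, 4.92% lower and 5.75% higher. The comparisons at the 2 grades share no library, although they may share animals. Of the 25 members with a mean of at least 10, 12 were below 0 in both (48.0%) and 6 above 0 in both (24.0%), against 36.5% and 39.4% of 17509 genes.

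**Figure D2:**
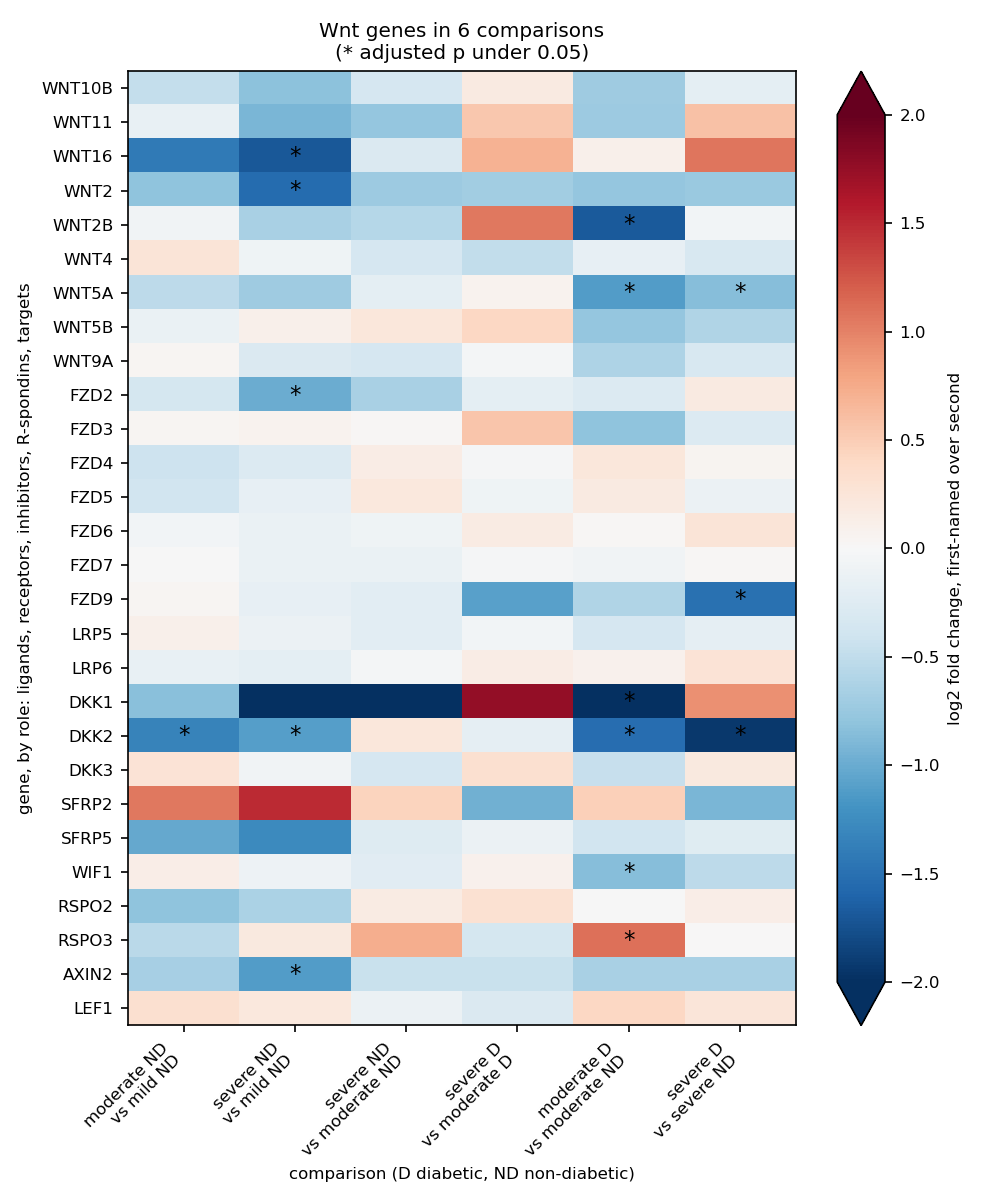
Log2 fold change (colour, first-named group over second) of 28 Wnt genes, those with a mean of at least 10 and 3 others past the threshold, in the 6 deposited comparisons. The colour scale ends at 2 either way, and stars mark an adjusted p under 0.05. DKK2 carries 4 stars and WNT5A 2, and neither comparison of severe with moderate segments carries any.

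When both grades were combined here as the mean of the 2 diabetes fold changes, 5 of 25 members were lower (DKK2, WNT5A, WIF1, WNT5B and WNT9A) and 1 was higher (RSPO3). That is 24.0% of the members, less than the 32.5% of all 17493 genes tested that were called (15.4% lower, 17.1% higher). The difference between the diabetes fold changes at the 2 grades, severe minus moderate, passed for 0 of 25 members with a two-sided Wald test and Benjamini-Hochberg adjustment, beside 0.0114% of all genes (0.00572% higher, 0.00572% lower), while 3 members had an unadjusted p under 0.05. RSPO3 and DKK3 were among the 25, and DKK1 was under the mean of 10. A call at 1 grade and none at the other is therefore not shown to be a difference between grades for any member.

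Among the ligands, 8 of 15 had a mean of at least 10. WNT5A, which mainly signals through ROR and Frizzled receptors outside the beta-catenin branch, stood apart by diabetes. It averaged 22.4 and 23.8 in moderate and severe diabetic segments, against 70.1, 49.1 and 43.2 in mild, moderate and severe segments without diabetes. The 95% intervals of the diabetic groups, 17.4 to 28.7 in moderate and 17.6 to 32.3 in severe segments, did not overlap those of any non-diabetic group, of which the lowest bound was 33.7. The authors' deposited table gives WNT5A a log2 fold change of -1.12 ± 0.27 (2.17-fold lower, adjusted p = 0.000936) with diabetes in moderate segments. In severe segments the authors' deposited table gives -0.85 ± 0.29 (1.81-fold lower, adjusted p = 0.0363); an adjustment over every fitted gene puts it at 0.0521. Against mild segments WNT5A stood at -0.71 ± 0.27 in severe segments by the authors' deposited table, short of the threshold (adjusted p = 0.0604). An annotated lncRNA, LOC102162847, overlaps WNT5A on chromosome 13 (37344684 to 37367215), and reads of overlapping genes may not be separable, since strand use is not given in the sources used here.

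WNT2, a ligand of the beta-catenin branch, had means of 13.96 and 8.63 in moderate and severe diabetic segments, against 41.6, 23.8 and 14.3 in mild, moderate and severe segments without diabetes. It was 2.91-fold lower in severe than in mild segments by the authors' deposited table (a log2 change of -1.54 ± 0.49, adjusted p = 0.0216), and its intervals of 8.93 to 22.8 in severe and 25.7 to 67.4 in mild segments did not overlap. WNT16, a ligand known from bone and joints, had means of 26.9 and 43.5 in moderate and severe diabetic segments, against 67.0, 26.0 and 20.8 in mild, moderate and severe segments without diabetes. Its fold change in severe against mild segments was -1.70 ± 0.57 in the authors' deposited table (3.24-fold lower, adjusted p = 0.0324). With diabetes in severe segments WNT16 stood at 1.08 ± 0.58 in the authors' deposited table, with an interval of -0.06 to 2.21 and an adjusted p of 0.237. A lncRNA, LOC106506804, overlaps WNT2 in the annotation. Both genes lie on chromosome 18, WNT16 from 25621802 to 25633730 and WNT2 from 28945825 to 28993969 in Sscrofa11.1.

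WNT5B, the closest relative of WNT5A, and WNT9A were called only when both grades were combined. WNT5B averaged 33.9 and 45.01 in moderate and severe diabetic segments, against 64.3, 59.0 and 68.3 in mild, moderate and severe segments without diabetes. The combined fold change with diabetes, computed here, was -0.69 ± 0.23 (adjusted p = 0.0137, Wald test over all genes). The protein-coding gene FBXL14 lies within its span. WNT9A averaged 90.5 and 87.7 in moderate and severe diabetic segments, against 134, 138 and 109 in mild, moderate and severe segments without diabetes. Its combined fold change was -0.46 ± 0.18 (adjusted p = 0.0331), and 0.0517 with no filter on the mean.

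WNT2B was 3.19-fold lower with diabetes in moderate segments by the authors' deposited table (a log2 change of -1.67 ± 0.60, adjusted p = 0.0348). Its means were low, 3.11 in the 6 moderate diabetic against 10.5 in the 4 moderate non-diabetic segments. In severe segments the means were 6.41 with and 6.79 without diabetes. WNT2B lies within the span of ST7L on chromosome 4, so its reads may be shared with that gene. The other 3 ligands with a mean of at least 10, WNT4, WNT10B and WNT11, had no call. WNT10B stood at -0.81 ± 0.42 in severe against mild segments by the authors' deposited table (p = 0.0552, adjusted p = 0.221), and its annotated span overlaps that of WNT1 on chromosome 5. WNT11 had the widest interval of the 3, -2.50 to 0.67 in the same comparison. WNT1, WNT3A, WNT7A and WNT8A were each listed at 0 in at least 1 group and had means of at most 1.40, so no fold is given for them, and WNT3 and WNT8B had means of 2.75 to 5.86.

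Among the receptors, FZD2 and FZD9 were the members past the threshold. FZD2, a Frizzled found in mesenchymal cells, averaged 37.2 and 32.6 in moderate and severe diabetic segments, against 57.4, 45.6 and 28.7 in mild, moderate and severe segments without diabetes. Its fold change in severe against mild segments was -1.0 ± 0.28 in the authors' deposited table (2.0-fold lower, adjusted p = 0.00505), and the intervals of 22.1 to 37.4 in severe and 44.0 to 74.9 in mild segments did not overlap. With diabetes FZD2 stood at -0.28 ± 0.26 in moderate and 0.17 ± 0.29 in severe segments by the authors' deposited table, neither past the threshold (adjusted p = 0.532 and 0.770). FZD9 averaged 3.78 in severe diabetic against 10.5 in severe non-diabetic segments, and 7.99 in moderate diabetic against 11.8 in moderate non-diabetic segments. The authors' deposited table gives it -1.49 ± 0.53 with diabetes in severe segments (2.81-fold lower, adjusted p = 0.0455); an adjustment over every fitted gene puts it at 0.0654. FZD9 overlaps the end of BAZ1B on chromosome 3 in the annotation.

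The remaining receptors had no call in any of the 6 comparisons. LRP6, one of the co-receptors that carry the signal inward, averaged 3398 and 3754 in moderate and severe diabetic segments, against 3567, 3209 and 3116 in mild, moderate and severe segments without diabetes. Its fold change with diabetes had an interval of -0.20 to 0.37 in moderate and -0.03 to 0.56 in severe segments. LRP5 averaged 538 and 516 in moderate and severe diabetic segments, against 636, 680 and 587 in mild, moderate and severe segments without diabetes. FZD7 averaged 281 and 276 in moderate and severe diabetic segments, against 297, 296 and 270 in mild, moderate and severe segments without diabetes. The interval of FZD7 with diabetes, -0.43 to 0.30 in moderate and -0.35 to 0.41 in severe segments, bounds what these segments can show. FZD4, a receptor of endothelial cells, averaged 2198 and 2173 in moderate and severe diabetic segments, against 2517, 1880 and 2087 in mild, moderate and severe segments without diabetes. FZD3, FZD5 and FZD6 likewise had no call, with the largest fold change at FZD3 with diabetes in moderate segments (-0.81 ± 0.42, p = 0.0569, adjusted p = 0.193, from the authors' deposited table).

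**Figure D3:**
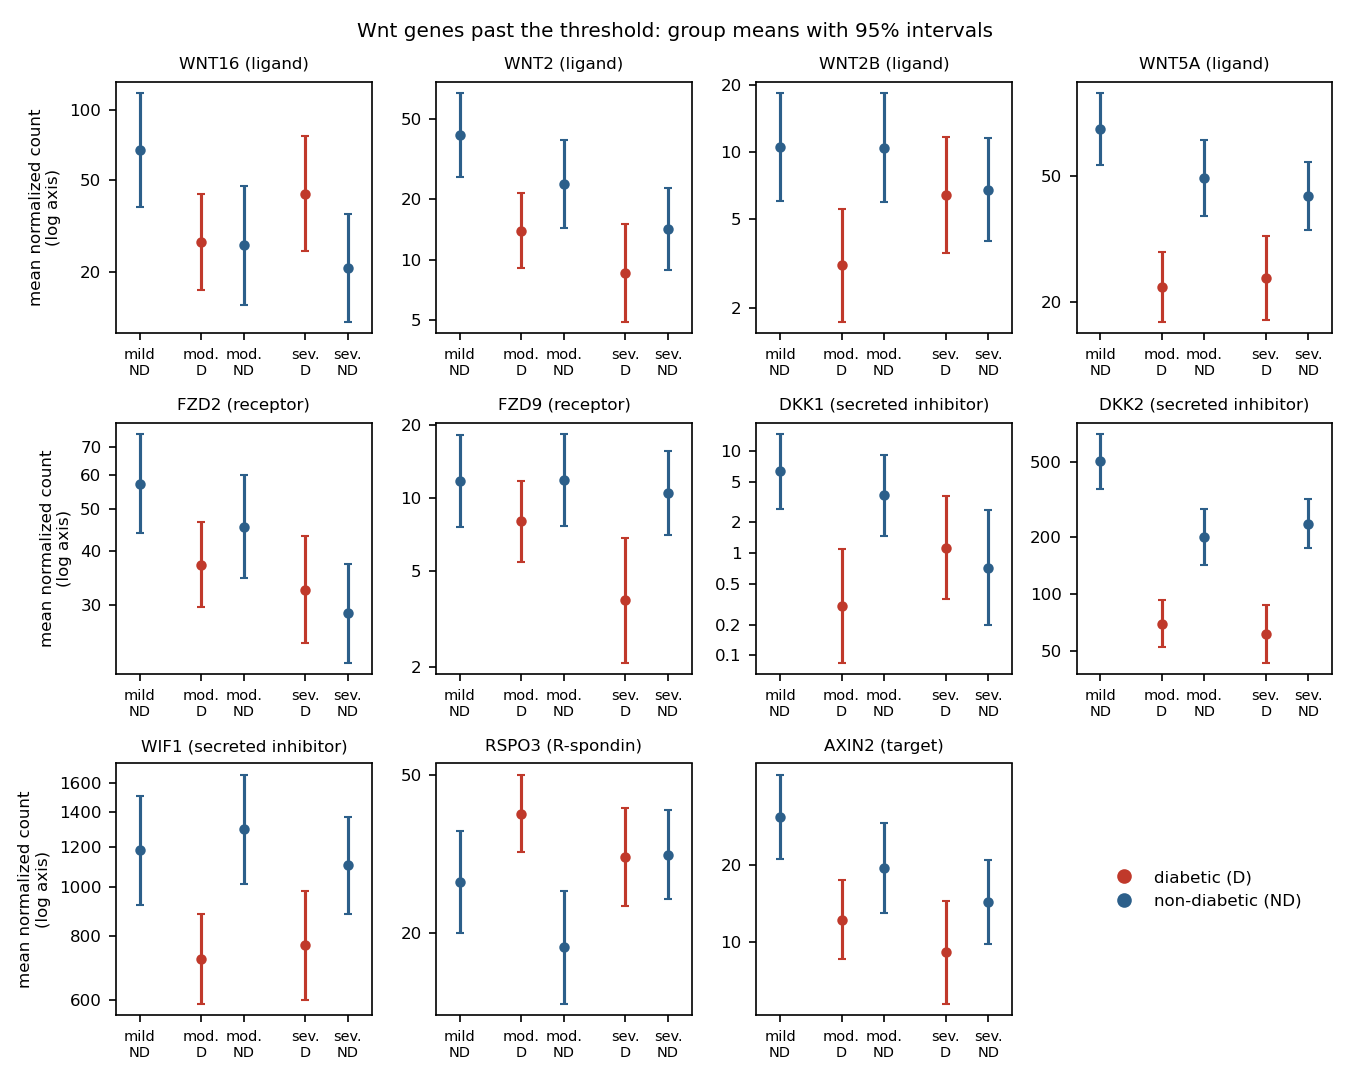
Group means (points) with 95% intervals (bars) of the 11 Wnt genes called in at least 1 deposited comparison, as normalized counts on a log axis that differs between panels, with diabetic groups (D) in red and non-diabetic groups (ND) in blue. DKK2 and WNT5A lie lower in both diabetic groups than in any non-diabetic group, while RSPO3 is highest in moderate diabetic segments at 40.01.

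The secreted inhibitors held the member that differed most often. DKK2, which binds LRP5 and LRP6 and lies on chromosome 8 from 114862056 to 114974327, was called in 4 of the 6 comparisons, lower each time. It averaged 69.9 in moderate and 61.8 in severe diabetic segments. Without diabetes the means were 503 in mild, 201 in moderate and 236 in severe segments. The 95% intervals fell into 3 separate tiers: 43.5 to 93.0 over the diabetic groups, 143 to 318 over moderate and severe segments without diabetes, and 361 to 701 in mild segments.

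The authors' deposited table gives DKK2 a fold change of -1.52 ± 0.33 with diabetes in moderate segments (2.86-fold lower, adjusted p = 0.000121). In severe segments the authors' deposited table gives -1.93 ± 0.34 (3.80-fold lower, adjusted p = 4.35e-06), which ranked 71 by p among 20869 genes. Against mild segments the authors' deposited table gives -1.33 ± 0.35 for moderate (2.51-fold lower, adjusted p = 0.00601) and -1.10 ± 0.33 for severe segments (2.14-fold lower, adjusted p = 0.0124). The diabetes fold change in severe minus that in moderate segments was -0.41 ± 0.47, with an interval of -1.33 to 0.51. The sums of heart muscle, adipocyte and adventitial fibroblast markers were also highest in mild segments. Against mild segments no heart muscle or adipocyte marker was called, while 1 fibroblast marker was lower in moderate and 6 in severe segments. Of the markers in these lists MYH6, MYL7, NPPA, PDGFRA and LUM were highest in other groups. The sums of heart muscle and adipocyte markers were lowest in diabetic segments, as DKK2 was. With diabetes 6 heart muscle markers were called lower in moderate and 4 in severe segments, beside 1 and 0 adipocyte markers. The fibroblast markers SCARA5, MFAP5 and PI16 were also lowest in both diabetic groups, while LUM, PDGFRA, DCN, DPT and CD34 were not. The part of these cell types in the DKK2 result was not tested. An annotated lncRNA, LOC110262177, lies within the span of DKK2.

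WIF1, which captures Wnt ligands outside the cell, was lower with diabetes. It averaged 722 and 768 in moderate and severe diabetic segments, against 1179, 1297 and 1102 in mild, moderate and severe segments without diabetes. The authors' deposited table gives -0.84 ± 0.23 in moderate segments (1.80-fold lower, adjusted p = 0.00439) and -0.52 ± 0.24 in severe segments, short of the threshold (p = 0.0324, adjusted p = 0.159). Over both grades, as computed here, WIF1 was 1.61-fold lower (log2 -0.68 ± 0.17, adjusted p = 0.000469, Wald test over all genes). With the grade of the lesion it did not pass, at 0.14 ± 0.26 in moderate and -0.10 ± 0.24 in severe against mild segments by the authors' deposited table.

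DKK1, the best studied Dickkopf, was at the edge of detection. Its normalized counts summed to 1.84 over the 6 moderate diabetic against 14.7 over the 4 moderate non-diabetic segments, which, rounded to whole counts, is a ratio per library of 0.0889 with an exact 95% counting interval of 0.00986 to 0.382. That interval covers counting error only. In the authors' deposited table the adjusted p of this comparison is 0.0285. The sums were 3.6 over the 5 severe against 25.3 over the 4 mild segments without diabetes, a ratio of 0.128 (0.0324 to 0.371), where the deposited adjusted p is blank and the p is 0.00319.

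DKK3, a divergent Dickkopf abundant in the vessel wall, averaged 2377 and 2964 in moderate and severe diabetic segments, against 2717, 3274 and 2585 in mild, moderate and severe segments without diabetes, and had no call. SFRP5, an inhibitor known from fat tissue, averaged 67.8 and 62.4 in moderate and severe diabetic segments, against 179, 88.8 and 74.1 in mild, moderate and severe segments without diabetes. Its fold change in severe against mild segments missed the threshold narrowly in the authors' deposited table (-1.27 ± 0.46, adjusted p = 0.0507). SFRP2 was the member with the largest positive fold change of the 25 against mild segments, with means of 16.8, 35.1 and 47.3 in mild, moderate and severe segments without diabetes. It averaged 48.4 in moderate and 24.9 in severe diabetic segments. At 1.49 ± 0.58 in severe against mild segments it did not pass in the authors' deposited table (p = 0.0110, adjusted p = 0.0779). DKK4 had means of at most 0.925.

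**Figure D4:**
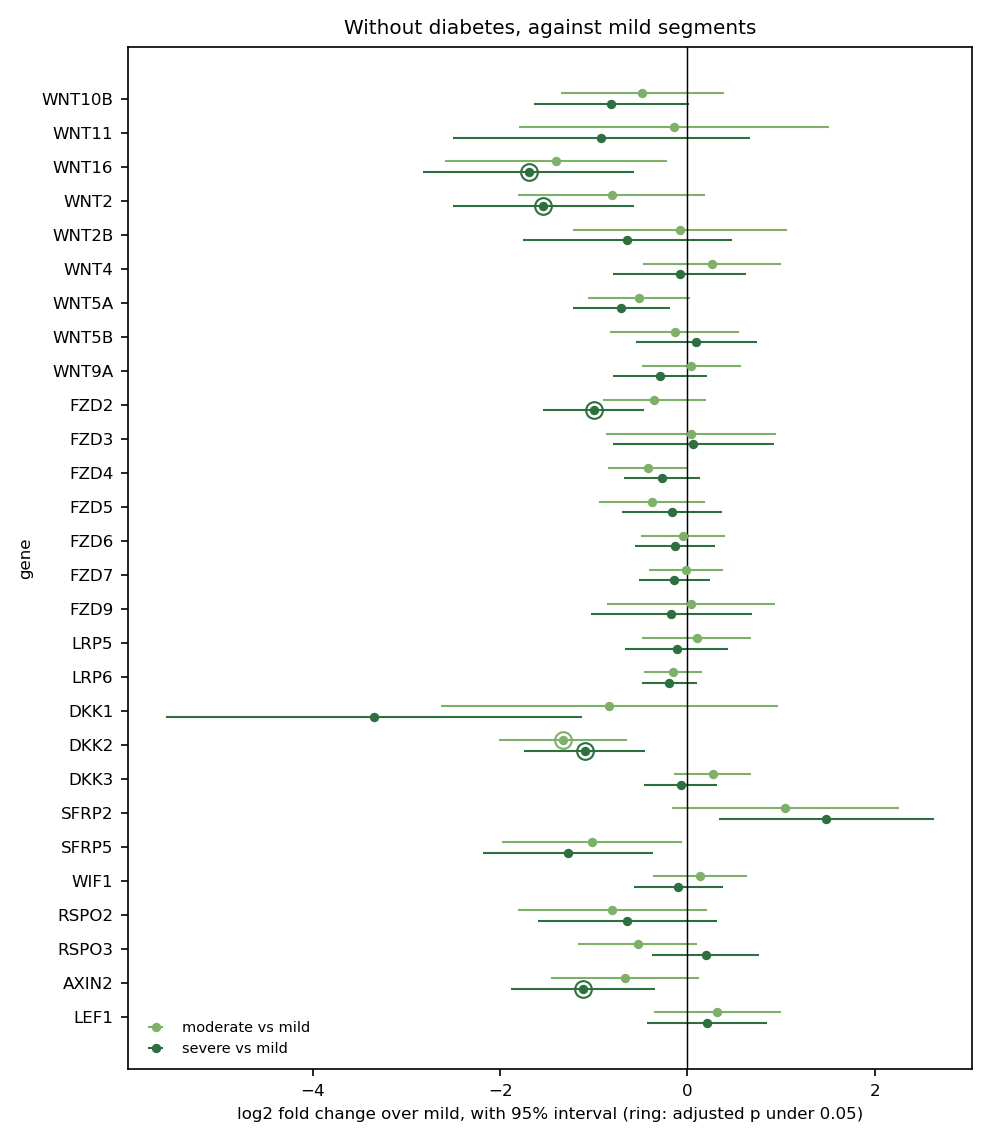
Log2 fold change over mild segments, with 95% intervals, of 28 Wnt genes in moderate and severe segments without diabetes; rings mark an adjusted p under 0.05. The ringed genes (DKK2 at both grades; WNT2, WNT16, FZD2 and AXIN2 in severe segments) lie below 0.

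Of the R-spondins, RSPO3, an R-spondin of endothelial cells on chromosome 1, was the member that was higher with diabetes. It averaged 40.01 in moderate diabetic against 18.4 in moderate non-diabetic segments, and the 95% intervals of 31.9 to 50.1 and 13.3 to 25.5 did not overlap. The authors' deposited table gives a fold change of 1.10 ± 0.29 (2.14-fold higher, adjusted p = 0.00281). In severe segments RSPO3 averaged 31.1 with and 31.5 without diabetes (0.01 ± 0.28, adjusted p = 0.989, from the authors' deposited table), and in mild segments it averaged 26.9. The diabetes fold change in severe minus that in moderate segments was -1.08 ± 0.41, with an adjusted p of 0.999 over all genes in the Wald test used here. RSPO2 averaged 313 and 387 in moderate and severe diabetic segments, against 549, 315 and 353 in mild, moderate and severe segments without diabetes. It had no call, and its intervals were wide, -1.81 to 0.20 in moderate against mild segments. RSPO1 had means of 1.52 to 2.89.

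**Figure D5:**
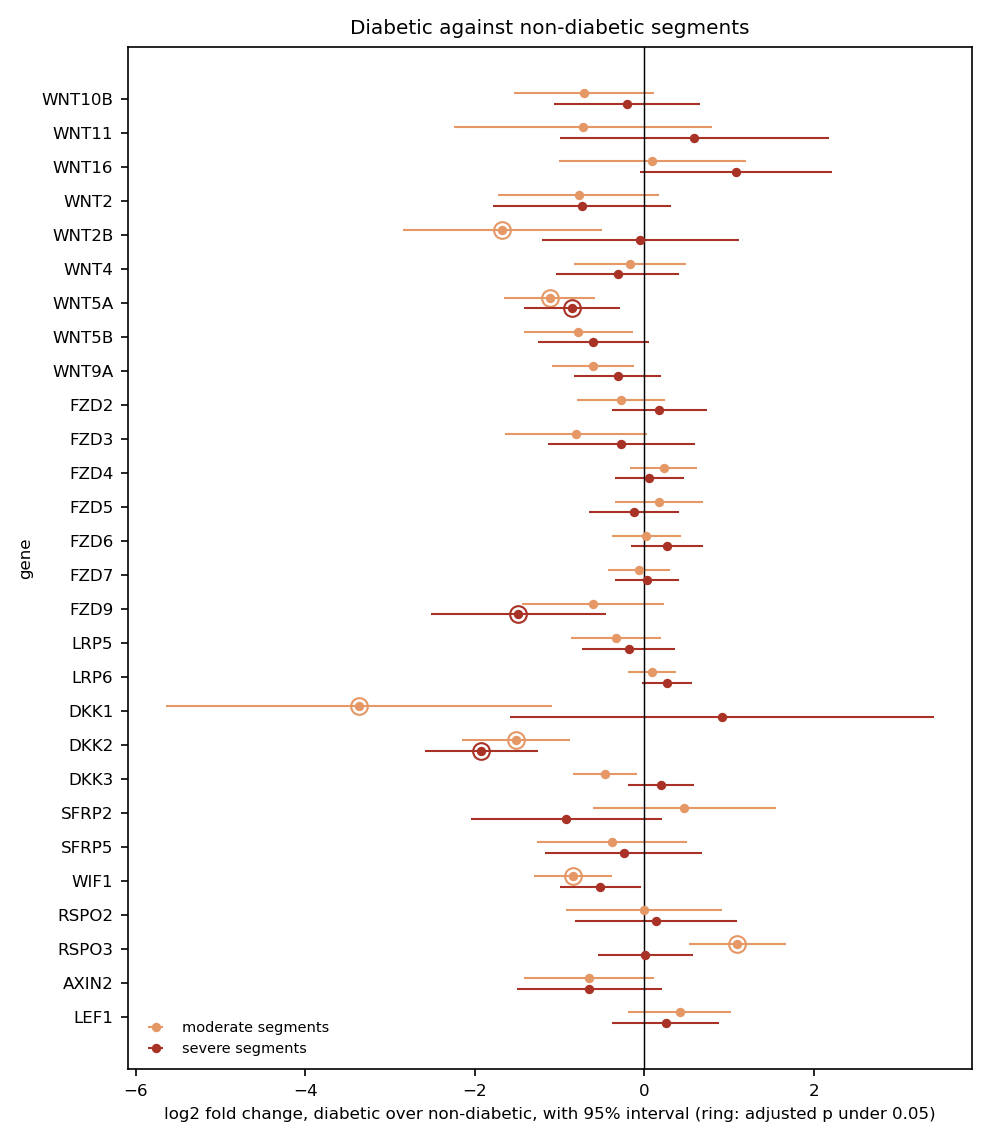
Log2 fold change of diabetic over non-diabetic segments, with 95% intervals, of 28 Wnt genes in moderate and severe segments; rings mark an adjusted p under 0.05. DKK2 and WNT5A are ringed at both grades below 0, and RSPO3 is ringed above 0 in moderate segments at 1.10.

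AXIN2, a scaffold of the complex that destroys beta-catenin and a widely used readout of the canonical branch, averaged 12.3 and 9.16 in moderate and severe diabetic segments, against 30.6, 19.5 and 14.4 in mild, moderate and severe segments without diabetes. The authors' deposited table gives -1.12 ± 0.39 in severe against mild segments (2.17-fold lower, adjusted p = 0.0404); an adjustment over every fitted gene puts it at 0.0595. With diabetes AXIN2 stood at -0.65 at both grades in the authors' deposited table, with standard errors of 0.39 and 0.44, and over both grades the fold change computed here was -0.65 ± 0.29 (p = 0.0262, adjusted p = 0.0731). AXIN2 overlaps the protein-coding gene CEP112 in the annotation. LEF1, a nuclear partner of beta-catenin, averaged 109 and 89.4 in moderate and severe diabetic segments, against 65.2, 81.6 and 75.3 in mild, moderate and severe segments without diabetes, with no call. Of 7 further genes of the family, including some the rule names, the rows carry an identifier in place of a symbol. TCF7, another nuclear partner, averaged 87.4 and 85.9 in moderate and severe diabetic segments, against 63.5, 81.9 and 80.0 in mild, moderate and severe segments without diabetes. NKD1, a feedback inhibitor, averaged 30.5 and 23.9 in moderate and severe diabetic segments, against 45.04, 45.03 and 27.9 in mild, moderate and severe segments without diabetes. Neither TCF7 nor NKD1 passed in any comparison. The other family genes with an identifier, WNT6, WNT7B, WNT9B, WNT10A and FZD10, had means of at most 7.30 and no call. Their fold changes with diabetes ran from 0.15 to 2.91 in moderate and from -2.71 to 0.40 in severe segments.

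Other genes of the pathway were counted over 7 lists, in which 82 of 90 names had a row. With diabetes 11 were higher and 7 lower of 77 in moderate segments (14.3% and 9.09%), where 8.2% of all genes tested were higher and 8.46% lower. In severe segments 7 were higher and 1 lower of 76 (9.21% and 1.32%), where 5.75% of all genes were higher and 4.92% lower. Against mild segments 3 were higher and 3 lower of 75 in moderate segments (4.0% each), where 3.56% of all genes were higher and 1.08% lower. In severe against mild segments 5 were higher and 6 lower of 76 (6.58% and 7.89%), where 7.19% of all genes were higher and 4.8% lower.

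The list of co-receptors and planar polarity genes counted 4 higher and 1 lower of 18 with diabetes in moderate segments, and 4 higher and 0 lower in severe segments, beside 8.2% higher and 8.46% lower of all genes in moderate and 5.75% higher and 4.92% lower in severe segments. Recentring on the median of well-expressed genes left 2 of the 4 in severe segments. Its median log2 fold change was 0.04 in moderate and 0.16 in severe segments, against -0.01 and 0.03 over all genes with a mean of at least 10. ROR2, a receptor of WNT5A, averaged 184 and 187 in moderate and severe diabetic segments, against 36.7, 80.9 and 66.8 in mild, moderate and severe segments without diabetes. The authors' deposited table gives ROR2 1.17 ± 0.27 with diabetes in moderate (adjusted p = 0.000322) and 1.49 ± 0.28 in severe segments (adjusted p = 1.29e-05), and 1.15 ± 0.31 in moderate against mild segments (adjusted p = 0.00820). ROR2 was thus higher in the diabetic groups, in which WNT5A was lower. PTK7, a polarity co-receptor, stood at 0.98 ± 0.22 with diabetes in moderate and 0.67 ± 0.23 in severe segments, and the proteoglycan SDC4 at 1.04 ± 0.23 in moderate and 0.75 ± 0.24 in severe segments, all with an adjusted p of 0.0399 or less in the authors' deposited table. MUSK, a receptor kinase of the neuromuscular junction, was lower in moderate (-0.96 ± 0.20) and severe (-1.01 ± 0.19) than in mild segments and higher with diabetes in moderate segments (0.53 ± 0.18), each with an adjusted p of 0.0322 or less as the authors deposited it. The glypican GPC3 was lower in moderate (-1.11 ± 0.31) and severe (-1.13 ± 0.29) against mild segments, and lower with diabetes in moderate segments (-1.03 ± 0.28), with an adjusted p of 0.0104 or less in the authors' deposited table.

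The list of R-spondin receptors and ubiquitin ligases, which also holds RSPO4, counted 1 lower and 0 higher of 5 in 4 comparisons. These were both comparisons with mild segments and both of diabetes. LGR4, a receptor of R-spondins, was lower in moderate (-0.82 ± 0.26, adjusted p = 0.0448) and severe (-1.06 ± 0.25, adjusted p = 0.000643) than in mild segments by the authors' deposited table, and the call in moderate segments was lost when the adjustment covered every fitted gene. With diabetes the authors' deposited table gives LGR6 -1.61 ± 0.47 in moderate (adjusted p = 0.00708) and ZNRF3, which removes Frizzled receptors from the surface, -1.02 ± 0.29 in severe segments (adjusted p = 0.0103). Of genes for Wnt secretion and modification, 4 of 7 names had a row, 1 of which was higher with diabetes at each grade. These were PORCN, which attaches the lipid to Wnt ligands, in moderate (0.79 ± 0.16, adjusted p = 3.80e-05) and the carrier WLS in severe segments (0.49 ± 0.15, adjusted p = 0.0171), as the authors' deposited table has it, and the WLS call was lost on recentring. WLS was also lower in severe than in mild segments (-0.60 ± 0.15, adjusted p = 0.00121), as the authors' deposited table has it.

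Among other inhibitors, 1 was higher and 2 lower of 12 with diabetes in moderate segments and 0 of 11 changed in severe segments. FRZB, another Frizzled-related protein, stood at -0.84 ± 0.22 (adjusted p = 0.00225), KREMEN1, a receptor for Dickkopf proteins, at -0.56 ± 0.20 (adjusted p = 0.0365) and IGFBP4 at 0.99 ± 0.32 (adjusted p = 0.0182), as the authors' deposited table has it. For SFRP1, also a Frizzled-related protein outside the rule, means were 3929 and 4997 in moderate and severe diabetic segments, against 4588, 4437 and 4274 in mild, moderate and severe segments without diabetes. The destruction complex and beta-catenin list had 16 of 17 names with a row. It counted 1 higher (APC, 0.21 ± 0.07, adjusted p = 0.0358) and 1 lower (AMER1, -0.46 ± 0.12, adjusted p = 0.00280) with diabetes in moderate segments by the authors' deposited table, and 1 higher in severe against mild segments (CSNK1E, 0.37 ± 0.10, adjusted p = 0.00287). The APC call was lost on recentring. Of 11 nuclear TCF partners with a row, 1 was lower with diabetes in moderate segments (PYGO1, -0.52 ± 0.16, adjusted p = 0.0120, from the authors' deposited table) and none changed in the other 5 deposited comparisons.

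Genes often named as Wnt targets in other tissues counted 4 higher and 1 lower of 11 with diabetes in moderate segments, and 2 higher and 0 lower of 11 in severe segments, beside 8.2% higher and 8.46% lower of all genes in moderate and 5.75% higher and 4.92% lower in severe segments. Of the 2 in severe segments, 1 was left on recentring or when every fitted gene was adjusted together. MYC averaged 470 and 401 in moderate and severe diabetic segments, against 211, 230 and 210 in mild, moderate and severe segments without diabetes (1.03 ± 0.22 and 0.93 ± 0.23 with diabetes, adjusted p of 0.00210 or less in the authors' deposited table). CD44, a hyaluronan receptor that leukocytes also express, stood at 0.84 ± 0.18 with diabetes in moderate segments and at 1.14 ± 0.19 in severe against mild segments by the authors' deposited table (adjusted p of 0.000110 or less). PPARD stood at 0.96 ± 0.20 with diabetes in moderate segments by the authors' deposited table (adjusted p = 0.000101). CCND1, a cyclin of the cell cycle whose row carries an identifier, moved the other way in moderate segments (-0.71 ± 0.16, adjusted p = 0.000394, from the authors' deposited table). AXIN2 was thus lower in severe than in mild segments where CD44 was higher, and none of these targets is specific to the pathway. Macrophage and T cell marker sums were also higher in diabetic than in non-diabetic moderate segments, although the macrophage marker C1QC was lower (4152 against 4251). In severe segments the T cell sum was higher with diabetes (220 against 85.2) and the macrophage sum was not (17583 against 17702). The part of these cells in the target genes was not tested.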

How the data were processed

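Total RNA had been extracted with Trizol, selected for poly-A and primed at random, per the labels' protocols. Build Sscrofa11.1 and DESeq2 are named in the submitters' processing notes. Not given in the sources used here: tool versions, aligner, counter, annotation, strand use. The deposited files are 6 tables of 35252 lines, 1 per comparison. Per the file headers they hold group means of normalized counts (a signal per gene), and the authors deposited the log2 fold change, its standard error, the p-value and the adjusted p-value; a blank adjusted p stays blank. In 3 tables the genes with no fold change hold a spreadsheet error text, and those columns, of another kind per the file headers, were read as log2. In every table, 24 lines held a date for a name and were left out.

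No column holds a single library, so the deposited tests were used as they are. They match a two-sided Wald test on the fold change and standard error within 4.39e-15. The mean and the difference of both diabetes contrasts were computed with Python 3.11.15 and scipy 1.17.1. Squared standard errors were added, since these contrasts share no library. Benjamini-Hochberg adjustment covered the 17493 genes with a mean of at least 10 and a p in both contrasts. The calculation was tested on simulated data with independent errors of the deposited size. That checks the calculation only and cannot show the effect of animals shared between segments. Group intervals come from variances solved from the 6 standard errors.

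Members and lists were chosen with earlier results of these data known. The text describes members past the threshold, and the 2 of smallest p in a role with fewer than 2 such members. Of other pathway genes it names at most the 3 of smallest adjusted p in a list and comparison, not always all of them. PTK7 (diabetes, severe), GPC3 (diabetes, moderate), SFRP1, SFRP2, SFRP5, DKK3, TCF7, NKD1, CCND1 and the receptors and ligands without a call were named after their values were seen. Names missing from the tables were matched by gene identifier, 7 in the pathway lists and 3 in the marker lists. Coordinates are 1-based from RefSeq's Sscrofa11.1 gene table, in which all 36 members matched.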

Additional observations from a re-analysis of the deposited data

How the results depend on the processing

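No paired analysis was possible because the deposited tables hold no values per library; leaving out a library or fitting with edgeR was not run for the same reason, so the number of segments behind each direction is unknown. Under other settings, 23 member counts stayed within 1.5 times the reported count. The exception was diabetes in severe segments, where adjusting over every gene with a p left 1 call (DKK2) of 3, and WNT5A and FZD9 were no longer called. In that adjustment AXIN2 was lost and DKK1 gained (adjusted p = 0.0482) in severe against mild segments. Under a mean of at least 10, DKK1, WNT2B and FZD9 were not tested, and SFRP5 passed in severe against mild segments. DKK2 kept all 4 calls under each setting run. Recentring on the median of 12194 genes moved fold changes by at most 0.08 and reversed 3 values near 0: RSPO3 with diabetes in severe segments (-0.067), and the difference of the diabetes contrasts for AXIN2 (-0.044) and WNT2 (-0.0086). Ratios of group means with a pseudocount of 1 kept all directions of the members called, and moved DKK1 beyond its standard error, to -2.09 in severe against mild and -1.84 with diabetes in moderate segments. With no filter FZD9 also passed over both grades (adjusted p = 0.0151). Of the pathway list counts 153 stayed within 1.5 times and 15 did not, 9 of them on recentring and 3 under each other adjustment of p. Most concern lists with 1 or 2 calls; the co-receptor list kept 2 of 4 calls with diabetes in severe segments on recentring. Depth limits the ligands WNT1, WNT3A, WNT7A and WNT8A, DKK1, DKK4 and RSPO1.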
